A study of Mus musculus with 6 samples.

Results

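The Polycomb repressor genes described here are 10 mouse genes that encode core subunits of the Polycomb repressive complexes, chosen by name and matched by Ensembl identifier among the 38293 genes counted. Of these, 4 encode PRC2 subunits (Ezh1, Ezh2, Eed and Suz12) and 6 encode PRC1 subunits (Bmi1, Ring1, Rnf2, Cbx2, Cbx7 and Cbx8). Their mRNA was measured in Lin-cKit+ fetal liver (FL) cells, a sorted fraction that lacks mature lineage markers, carries c-Kit and holds hematopoietic stem and progenitor cells, taken from C57BL/6 embryos at embryonic day 14.5 (E14.5). The wt group held 3 embryos labelled wild-type for hnRNP L, whose cells the study's legends describe as L fl/fl, so that both groups are given floxed alleles and VavCre is named for the deficient group. The hnRNP L deficient group held 3 VavCre+hnRNP L fl/fl embryos, in which Cre recombinase under the Vav promoter, active in blood cells, deletes the floxed Hnrnpl alleles. Each library came from 1 embryo. The questions were how the subunits rank against each other, how PRC1 compares with PRC2 and Ezh1 with Ezh2, and which members differ between the genotypes.

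Polycomb proteins keep developmental genes silent through chromatin. PRC2 methylates lysine 27 of histone H3 through EZH1 or EZH2, of which EZH2 is the form typical of dividing cells and EZH1 that of resting cells, and neither is active without EED and SUZ12. PRC1 ubiquitinates histone H2A through RING1 or RNF2 (RING1B) paired with a PCGF protein such as BMI1, and its CBX subunits bind the methyl mark that PRC2 writes. In blood, BMI1 is known for maintaining the self-renewal of stem cells, CBX7 for a similar role, and EZH2 for its requirement in fetal liver hematopoiesis.

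The deleted gene served as a check of the labels. In CPM, counts scaled for the size and composition of each library, Hnrnpl stood at 552, 531 and 528 in wt and at 242, 288 and 269.5 in hnRNP L deficient cells, for which the log2 fold change was -1.01 (SE 0.088, adjusted p = 0.00724). Reads counted on genes ranged from 55952160 to 76157226 per library, and 3 reads corresponded to between 0.0402 and 0.0540 CPM. A sample label gave the tissue as whole embryo, another as fetal liver cells. Hepatocyte markers summed to between 112 and 238 CPM in wt and between 20.9 and 72.1 CPM in deficient libraries (Trf called lower). Stem and progenitor markers summed to between 560.0 and 825 CPM in wt and to between 383 and 420 CPM in deficient libraries, with 4 of 5 called lower (Kit, Cd34, Hlf and Meis1). In the lymphoid list 3 of 4 tested markers were called lower, and the list summed to between 4.01 and 26.3 against between 0.202 and 1.18 CPM. Macrophage markers summed to between 6.57 and 19.0 against between 3.39 and 5.003 CPM (C1qa called lower, Cd163 at 0 reads in every library), and mast cell and basophil markers to between 20.6 and 83.4 against between 12.9 and 44.9 CPM (none called). Granulocyte precursor markers summed to 7896 CPM in wt 2, to 555 and 1430.5 CPM in wt 1 and wt 3, and to between 234 and 772 CPM in the deficient libraries, with none of its genes called. Xist, the RNA of the inactive X chromosome, stood at 1965 CPM in wt 1 and 2300.0 CPM in deficient 2 and at no more than 4.56 CPM in the other libraries. The part of these differences in cell makeup in the results below was not tested, and in bulk RNA a smaller share of cells that express a gene cannot be told apart from less RNA per cell.

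All 10 members were expressed at levels that entered the test, and their order per kb of exon was the same in each of the 6 libraries. Suz12 came first with a wt mean of 69.6 ± 8.08 CPM per kb (SD, n = 3), higher than 95.1% of the genes tested. Ezh2 followed at 33.9 ± 2.86, Eed at 26.8 ± 2.61 and Rnf2 at 18.5 ± 1.46 CPM per kb. Bmi1 stood at 13.1 ± 1.28 and Ring1 at 11.4 ± 0.887 CPM per kb. The 3 CBX genes and Ezh1 formed the lower end, with Cbx2 at 4.51 ± 0.0917, Ezh1 at 3.42 ± 0.568, Cbx7 at 2.41 ± 0.361 and Cbx8 at 1.72 ± 0.639 CPM per kb, the last higher than 33.1% of the genes tested. Across embryos, neighbours overlapped in wt for Bmi1 and Ring1 (11.6 to 14.0 against 10.7 to 12.4 CPM per kb) and for Cbx7 and Cbx8 (2.06 to 2.78 against 1.04 to 2.31 CPM per kb), although within each library the first of each pair was higher. No neighbours overlapped among the deficient embryos. The plot of levels per kb of exon shows the gap between Ring1 and Cbx2, which no member fills. Both the order and this gap depend on the length used. The annotated exons of Cbx7 span 6487 bases, of which 888 are coding. The same lengths are 4257 and 1557 for Cbx2 and 7440 and 2327 for Ezh1. No order by coding length is given here.

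**Figure D1:**
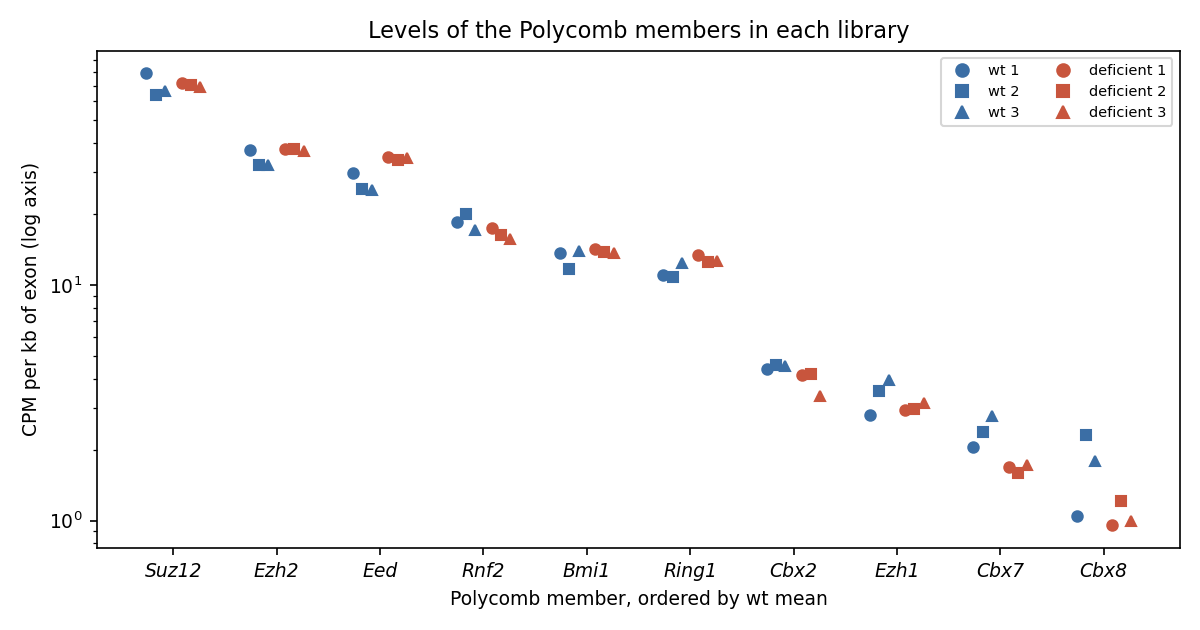
Level of each Polycomb member in each library, as CPM per kb of annotated exon on a log axis, with members ordered by their wt mean and 1 symbol per embryo (blue wt, red hnRNP L deficient). Suz12 is highest and Cbx8 lowest in all 6 libraries, and the members fall into an upper group down to Ring1 (wt mean 11.4) and a lower group from Cbx2 (wt mean 4.51).

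Between the genotypes, 2 of the 10 members passed the test at an adjusted p under 0.05, Eed higher and Cbx7 lower in hnRNP L deficient cells. Without wt 1 there were 4 (Ezh2 and Cbx8 in addition), a setting in which 32.4% of all genes were called, and without wt 3 or any 1 deficient library there were 0, where at most 0.115% of all genes were called. Over all 14396 genes tested the same rule called 19.2%, with 9.32% higher and 9.85% lower, so the members were called about as often as genes in general. The median log2 fold change was -0.08 over the members and -0.03 over all genes. The 3 deficient and 3 wt values did not overlap for 4 members (Eed, Ring1, Cbx2 and Cbx7), against 45.5% of all genes tested. Among the PRC2 members 3 of 4 estimates lay above 0 (median 0.08), and among the PRC1 members 2 of 6 (median -0.19). The embryos of the wt group varied more, with a higher coefficient of variation than the deficient group for 9 of 10 members (median 9.74% against 3.55%) and for 81.7% of all genes.

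**Figure D2:**
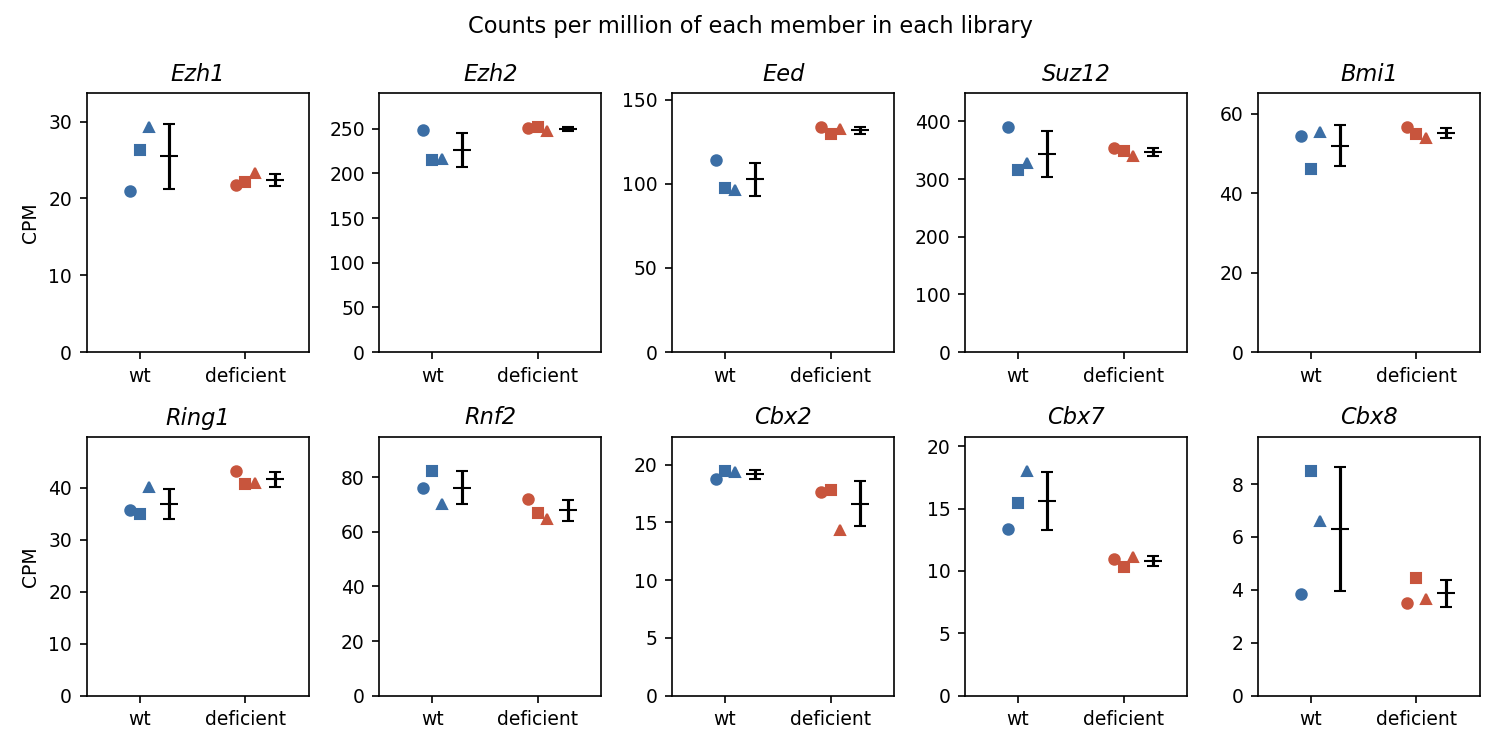
CPM of each member in each library (symbols, circle, square and triangle for embryos 1 to 3 of each genotype), with the mean and SD of each genotype beside them (black, n = 3). The 3 deficient values of Eed lie above the wt values, between 129.6 and 134 CPM, and those of Cbx7 below them, between 10.3 and 11.1 CPM.

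Eed encodes the subunit that binds trimethylated H3 and activates the PRC2 enzyme. It lies on chromosome 7, GRCm38 positions 89954654 to 89980983, minus strand. Its counts were 114, 97.4 and 96.3 CPM in wt and 134, 129.6 and 132 CPM in deficient embryos. All deficient embryos were above all wt embryos, with wt 1 the nearest of the latter. The fold change was 1.29 (95% interval 1.12 to 1.48), log2 0.36 with SE 0.084 and adjusted p = 0.0303. Without wt 3 or without deficient 1, 2 or 3 the estimate stayed between 0.32 and 0.39 but the adjusted p was 0.0821, 0.113, 0.102 and 0.128. In those same settings the calls over all genes fell from 2759 to 5, 17, 8 and 7. The noncoding gene E230029C05Rik overlaps Eed on the opposite strand and shares up to 261 identical bases with it, and whether counting used the strand was not given in the sources used here.

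The other PRC2 core gene, Suz12, encodes the scaffold on which the complex assembles (chromosome 11, 79993106 to 80034123, plus strand). It stood at 389.8, 316 and 327 CPM in wt and at 354, 348 and 339.8 CPM in deficient libraries. The deficient values fell inside the wt range, with wt 1 the highest of all 6. The log2 fold change was 0.01 (95% interval -0.22 to 0.24, adjusted p = 0.934), so a change of either sign up to these bounds was not resolved. The ratio per kb of Eed to Suz12 was 0.378, 0.399 and 0.380 in wt and 0.487, 0.481 and 0.503 in deficient libraries, so that every deficient ratio was above every wt ratio. The ratios of Eed to Ezh2, Suz12 to Ezh2 and Ring1 to Rnf2 did not overlap between the genotypes either. Among single genes 45.5% of all tested did not overlap, and no such share was taken over ratios. All of these ratios were outside the planned comparisons, Eed to Suz12 was set up after the single values had been seen, and none was tested. The ratios with Eed contain the Eed values given above and are not a separate result.

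The catalytic subunits were expressed very unequally. Ezh2 (chromosome 6, 47530139 to 47595341, minus strand) stood at 249, 215 and 216 CPM in wt and 250.7, 252 and 247 CPM in deficient libraries. Wt 1 lay within the deficient range and the other wt libraries below it. Its log2 fold change of 0.14 (SE 0.080, 95% interval -0.05 to 0.33) did not pass the test (adjusted p = 0.240), although it did without wt 1 (0.22, adjusted p = 0.0353). Ezh1 (chromosome 11, 101191115 to 101226463, minus strand) stood at 20.9, 26.2 and 29.3 CPM in wt and 21.8, 22.2 and 23.3 CPM in deficient libraries. Here the lowest value belonged to wt 1 and the groups overlapped, with a log2 fold change of -0.18 (SE 0.14, 95% interval -0.50 to 0.13, adjusted p = 0.356). Per kb of exon, Ezh2 exceeded Ezh1 by 13.2, 9.12 and 8.22 times in wt and by 12.8, 12.6 and 11.8 times in deficient libraries. With coding length in place of exon length the excess ranged from 7.45 to 12.0 times. The log2 ratio of Ezh1 to Ezh2 was -3.32 ± 0.36 in wt and -3.63 ± 0.06 in deficient cells (SD, n = 3 each). The difference of -0.31 was within the spread of the wt embryos (exact permutation test, two-sided, p = 0.4, where 0.1 is the smallest value that 3 against 3 allows).

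Among all genes tested, those with the pattern over the 6 libraries nearest to Ezh1 were Tom1l2, Ccdc61, Lancl1, Zfp956 and Letm2, with a root mean square difference of centred log2 CPM between 0.0194 and 0.0460. Nearest to Ezh2 were Csnk1a1, Prpf38a, Aifm1, Tmem183a and Ythdc1, with differences between 0.0108 and 0.0178. None of these 10 genes was called (adjusted p between 0.203 and 0.544).

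The RING1 subunits are the ubiquitin ligases of PRC1. Rnf2 (chromosome 1, 151458004 to 151500955, minus strand) stood at 75.9, 82.3 and 70.3 CPM in wt and 72.0, 66.8 and 64.6 CPM in deficient libraries. The groups overlapped at deficient 1, and the log2 fold change of -0.17 (SE 0.084, adjusted p = 0.189) did not pass the test. Ring1 (chromosome 17, 34020792 to 34024680, minus strand) stood at 35.6, 34.8 and 40.2 CPM in wt and at 43.2, 40.6 and 40.8 CPM in deficient libraries. The lowest deficient value was just above the highest wt value, and the log2 fold change of 0.17 (SE 0.085) did not pass either (adjusted p = 0.186). Ring1 made up between 35.0% and 42.1% of the RING1 pair per kb in wt and between 43.3% and 44.6% in deficient libraries, a share described after the values had been seen. Rnf2 overlaps Trmt1l on the opposite strand, which stood at 64.8, 59.0 and 58.7 CPM in wt and 59.8, 59.9 and 54.3 CPM in deficient libraries.

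Bmi1 encodes PCGF4, the PCGF subunit of one canonical PRC1 (chromosome 2, 18677018 to 18686629, plus strand). It stood at 54.3, 46.2 and 55.5 CPM in wt and 56.6, 54.9 and 54.0 CPM in deficient libraries, which overlapped. The log2 fold change was 0.09 (95% interval -0.12 to 0.29, adjusted p = 0.514), while the stem and progenitor marker list described above had 4 of its 5 genes called lower. Among the 6 PCGF paralogs Bmi1 had the largest share per kb in each library, between 32.1% and 35.9% in wt and between 29.8% and 31.0% in deficient libraries, followed by Pcgf6 with between 22.2% and 29.0% over the 6 libraries. A pseudogene, Gm5946, matches Bmi1 transcripts over 2660 bases at 97.0% identity. Reads without a unique alignment were not counted, and the share lost at Bmi1 was not tested.

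The CBX subunits, which read the H3 lysine 27 methyl mark, had the lowest levels of the PRC1 members, and all 3 estimates were below 0. Cbx7 (chromosome 15, 79915807 to 79971119, minus strand) stood at 13.4, 15.4 and 18.0 CPM in wt and at 10.9, 10.3 and 11.1 CPM in deficient libraries. Every deficient embryo was below every wt embryo, and wt 1 was again the wt library nearest to them. The fold change was 0.691 (95% interval 0.548 to 0.872), log2 -0.53 with SE 0.14 and adjusted p = 0.0420. The call was lost without a filter on low counts (adjusted p = 0.0571), without wt 3 (-0.41, adjusted p = 0.0966) and without deficient 1, 2 or 3 (adjusted p = 0.132, 0.160 and 0.150). Apobec3 overlaps Cbx7 on the opposite strand, at 160, 152 and 153 CPM in wt and 129.7, 135 and 135 CPM in deficient libraries (log2 fold change -0.22, adjusted p = 0.0525). The part of Apobec3 reads in the Cbx7 counts was not tested.

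Cbx8 (chromosome 11, 119036305 to 119040969, minus strand) had the largest estimate and the widest interval of the members. Its values were 3.83, 8.50 and 6.59 CPM in wt and 3.51, 4.44 and 3.64 CPM in deficient libraries. Wt 1 lay among the deficient libraries, and the log2 fold change of -0.71 (SE 0.30, 95% interval -1.42 to -0.00143) did not pass (adjusted p = 0.132). It passed without wt 1 (-0.96, adjusted p = 0.0192) and by limma-voom (-0.66, adjusted p = 0.0427), while without wt 2 the estimate was -0.43 (adjusted p = 0.259). Cbx2 (chromosome 11, 119022962 to 119031270, plus strand) stood at 18.7, 19.5 and 19.3 CPM in wt and 17.6, 17.8 and 14.4 CPM in deficient libraries. Its groups did not overlap, with deficient 3 the lowest, but the log2 fold change of -0.21 (SE 0.12) did not pass (adjusted p = 0.244). Of the 5 Polycomb CBX paralogs, Cbx6 had the largest share per kb in each library, between 35.2% and 44.7%. Cbx7 held between 9.77% and 12.9% in wt and between 9.37% and 11.1% in deficient libraries. Its share overlapped between the genotypes, and Cbx6 also had an estimate below 0 (log2 -0.29, adjusted p = 0.0521).

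**Figure D3:**
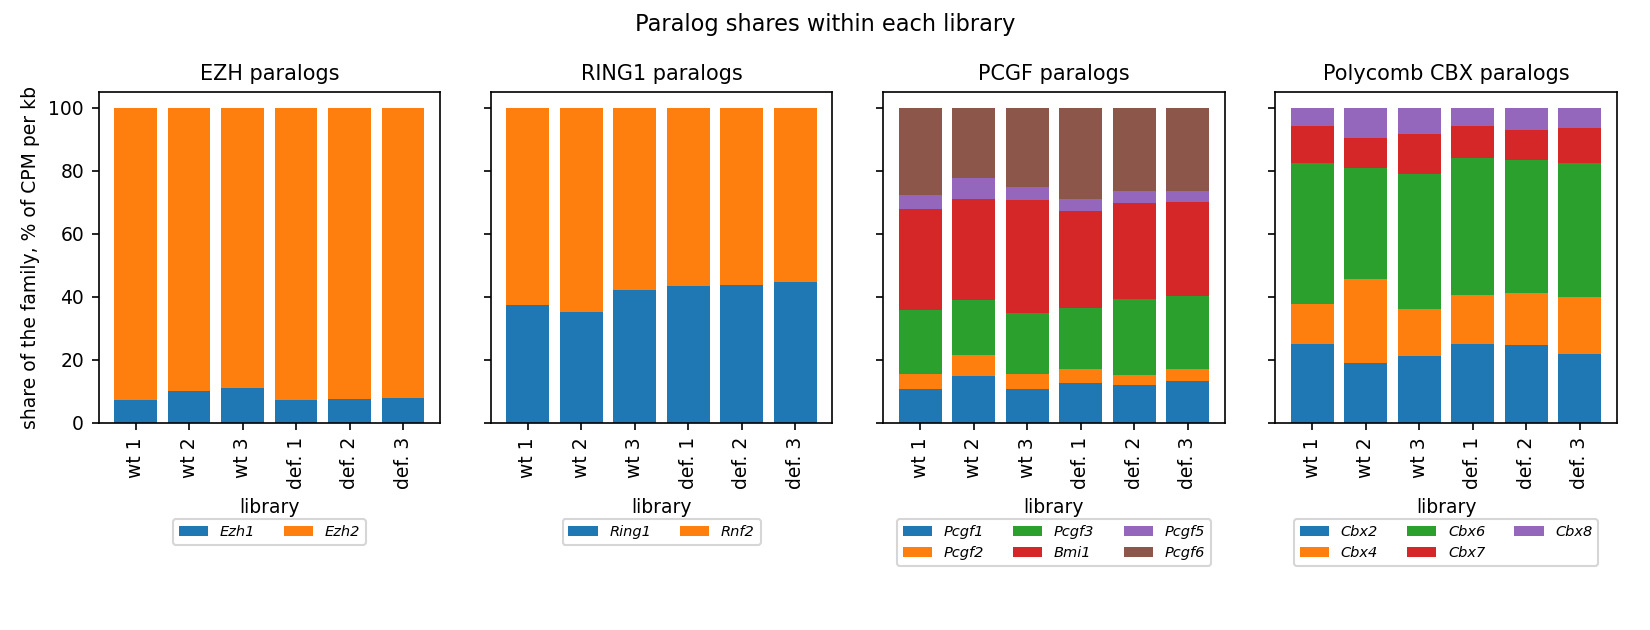
Share of each paralog in the summed CPM per kb of its family, in percent, as stacked bars for each library (wt 1 to 3, then hnRNP L deficient, def., 1 to 3). Ezh2 holds between 89.2% and 93.0% of the EZH pair, Bmi1 is the largest of the PCGF genes and Cbx6 the largest of the CBX genes in every library.

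Summed per kb, the 6 PRC1 members stood below the 4 PRC2 members in every library. The log2 ratio of PRC1 to PRC2 was -1.56, -1.28 and -1.28 in wt and -1.50, -1.55 and -1.58 in deficient libraries. Wt 1 sat among the deficient libraries, and the group means of -1.37 ± 0.16 and -1.55 ± 0.04 (SD, n = 3 each) differed by -0.17, which is about the wt spread. That overlap holds for the sums. As the difference of mean log2 levels, in which each gene counts equally, the values were -2.03, -1.72 and -1.75 in wt and -2.11, -2.10 and -2.20 in deficient libraries, which did not overlap, and the means differed by -0.30. Both are given without a test. Suz12 was the largest part of the PRC2 sum in each. Wt 1 was closer to the deficient mean than to the mean of wt 2 and wt 3 for 6 members (Ezh1, Ezh2, Suz12, Bmi1, Cbx7 and Cbx8), against 52.5% of all genes. The label of wt 1 shares the first part of its embryo number with deficient 1, and that of deficient 2 with deficient 3, and the labels do not say what that part means.

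**Figure D4:**
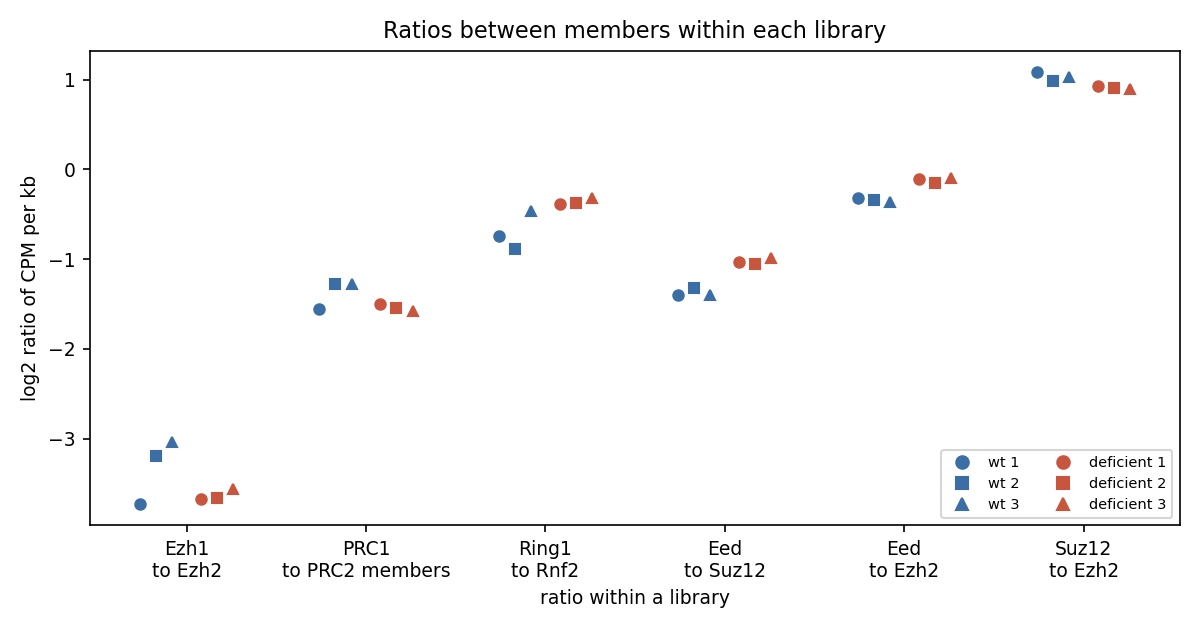
Log2 ratios of CPM per kb between members, computed within each library (blue wt, red hnRNP L deficient, circle, square and triangle for embryos 1 to 3). The genotypes overlap for Ezh1 to Ezh2 and for the summed PRC1 to PRC2 members. They do not overlap for Ring1 to Rnf2, Eed to Suz12 (near -1.38 in wt and -1.03 in deficient libraries), Eed to Ezh2 and Suz12 to Ezh2. Among single genes 45.5% of all tested did not overlap, and of the ratios only Ezh1 to Ezh2 was tested.

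The promoters of the members were read from RefSeq for 9 of 10 genes (GRCm38.p6), each window ending 50 bases past the annotated start site. They were rich in CpG, with a median ratio of observed to expected CpG of 0.882 against 0.384 over 32851 promoters, and with a median GC content of 66.3% against 52.7%. Letters of the E2F motif (TTTGGCGC, TTTCCCGC or GGCGGGAA on either strand) occurred in 2 of the 9, Ezh2 and Suz12, and in 3.21% of all promoters. The letters TTTGAA of the CHR, an element known from cell cycle genes, occurred in Eed at 2 positions, in Suz12 and in Cbx7, which is 3 of 9 against 17.9% of all promoters. The letters searched for NRF1 (GCATGCGC), YY1 (AAGATGGC) and ETS factors (CCGGAAGT) were in none of the 9 windows, and in 2.71%, 2.75% and 3.89% of all. These matches describe letters only and no binding was measured.

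The windows of the called members and of the genes with E2F letters follow on the strand of the gene, with motif letters in capitals. They are Eed at chr7:89980927-89981226 (minus strand), Cbx7 at chr15:79932597-79932896 (minus strand), Ezh2 at chr6:47594981-47595280 (minus strand) and Suz12 at chr11:79992856-79993155 (plus strand). Eed was called higher and Cbx7 lower, and both windows hold TTTGAA or its reverse complement TTCAAA. The Cbx7 start site lies inside the longer span that GENCODE gives the gene.
Eed: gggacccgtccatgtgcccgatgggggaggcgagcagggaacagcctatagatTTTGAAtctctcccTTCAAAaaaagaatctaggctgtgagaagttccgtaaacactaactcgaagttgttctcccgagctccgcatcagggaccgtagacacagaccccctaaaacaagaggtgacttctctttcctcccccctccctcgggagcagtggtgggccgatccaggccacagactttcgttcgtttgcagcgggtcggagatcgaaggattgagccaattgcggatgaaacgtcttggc
Cbx7: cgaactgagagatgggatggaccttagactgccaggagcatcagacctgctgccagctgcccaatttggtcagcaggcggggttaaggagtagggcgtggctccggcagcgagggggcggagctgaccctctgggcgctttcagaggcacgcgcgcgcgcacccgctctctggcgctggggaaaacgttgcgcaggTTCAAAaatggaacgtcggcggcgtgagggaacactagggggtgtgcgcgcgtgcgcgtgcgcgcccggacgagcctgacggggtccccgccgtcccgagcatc
Ezh2: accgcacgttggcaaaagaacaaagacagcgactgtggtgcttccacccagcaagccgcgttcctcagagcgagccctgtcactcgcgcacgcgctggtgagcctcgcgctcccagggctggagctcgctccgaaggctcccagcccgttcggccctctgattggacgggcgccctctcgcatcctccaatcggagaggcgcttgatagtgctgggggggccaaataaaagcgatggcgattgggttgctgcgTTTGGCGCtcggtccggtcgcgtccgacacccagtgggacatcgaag
Suz12: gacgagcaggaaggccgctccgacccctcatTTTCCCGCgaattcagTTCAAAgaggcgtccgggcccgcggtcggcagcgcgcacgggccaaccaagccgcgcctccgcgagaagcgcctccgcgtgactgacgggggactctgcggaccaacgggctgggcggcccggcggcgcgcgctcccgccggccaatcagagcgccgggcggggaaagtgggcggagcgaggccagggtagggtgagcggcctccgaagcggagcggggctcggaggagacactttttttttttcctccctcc

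Exon usage of the members was compared in the 5 libraries with bin counts used here, without deficient 1. Of 204 exon bins, 169 passed the read minimum and 0 were called by edgeR's exon usage test, where 0.0288% of all 176996 bins tested were called. At an unadjusted p under 0.05 the same test gave 0 member bins (1.03% of all bins) and limma's exon test gave 5, or 2.96% beside 2.67% of all bins. The smallest p was 0.0846, for bin 5 of the 28 in Cbx7, with 0.314, 0.347 and 0.160 CPM in wt and 0.0653 and 0.0840 CPM in deficient libraries (log2 change in usage -1.26). That bin was at or below 36 reads in each library. Changes in bin usage lay between -0.14 and 0.22 in Eed, between -0.09 and 0.25 in Suz12 and between -0.03 and 0.15 in Rnf2. Ezh1, Cbx2, Cbx7 and Cbx8 had medians of 73.4, 54.9, 33.2 and 50.9 reads per bin, and changes there reached 0.86, 1.14, -1.26 and 0.83. In the other members the bin with the smallest p was bin 11 of Ezh1 (log2 change in usage 0.86), bin 40 of Ezh2 (-1.13), bin 13 of Eed (0.22), bin 1 of Suz12 (0.25), bin 2 of Bmi1 (0.49), bin 6 of Ring1 (-0.71), bin 7 of Rnf2 (0.15), bin 1 of Cbx2 (1.14) and bin 7 of Cbx8 (0.76), and none of these passed the test.

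The other genes of the Polycomb pathway comprised 46 genes in 4 lists, and all were tested. Of these, 4 were called higher and 2 lower in deficient cells, 13.0% of the 46 beside 19.2% of all genes, and their median log2 fold change was -0.04. Jarid2, which guides PRC2 to chromatin, was the 1 of 8 further PRC2 genes that was called. It went from 79.8, 98.5 and 92.6 CPM in wt to 70.5, 66.5 and 69.7 CPM (log2 -0.39, SE 0.091, adjusted p = 0.0300). Rbbp7, a histone-binding subunit, was highest per kb in that list at 154 ± 8.43 in wt and 158 ± 2.47 CPM per kb in deficient cells (adjusted p = 0.801). Of the 8 estimates in that list, 4 lay above 0 and 4 below (median log2 fold change -0.04).

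Among 21 further PRC1 genes, 3 were called higher and 1 lower, 19.0% beside 19.2% of all genes. Of their estimates 8 lay above 0 and 13 below (median log2 fold change -0.04). Phc2, a polyhomeotic subunit of canonical PRC1, went from 81.6, 79.7 and 79.5 to 108, 96.7 and 94.95 CPM (log2 0.31, adjusted p = 0.0298). Yaf2, a subunit of the variant PRC1 complexes without Polycomb CBX subunits, went from 24.6, 25.3 and 26.3 to 31.8, 31.2 and 31.6 CPM (log2 0.31, adjusted p = 0.0356). L3mbtl2, of a further variant complex and the highest per kb of its list, went from 118, 101 and 119.6 to 146, 138 and 138 CPM (log2 0.32, adjusted p = 0.0419). All 3 genes were higher in every deficient embryo than in any wt embryo. The groups did not overlap for 8 of the 21 genes, beside 45.5% of all genes tested. Scml2, an MBT domain protein associated with PRC1, fell from 9.02, 7.99 and 9.94 to 6.26, 6.32 and 5.80 CPM (log2 -0.55, SE 0.15, adjusted p = 0.0443).

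Of the 9 genes of PR-DUB, the complex that removes ubiquitin from H2A, Foxk2 rose from 134, 99.9 and 118 to 174, 159 and 164 CPM (log2 0.50, SE 0.11, adjusted p = 0.0282). Hcfc1 was the highest per kb in that list (81.7 ± 18.6 in wt and 98.0 ± 5.92 CPM per kb in deficient cells, adjusted p = 0.294). Of 8 enzymes that oppose Polycomb, 0 were called by edgeR with all 6 libraries, beside 19.2% of all genes. At an unadjusted p under 0.05 the same test gave 0 of the 8, beside 5417 of all 14396 genes tested. Kmt2b, an H3 lysine 4 methyltransferase, was the highest of them per kb (17.7 ± 2.30 in wt and 20.2 ± 0.403 CPM per kb in deficient cells). By limma-voom 1 of the 8 enzymes, Kmt2c, was called, and by DESeq2 0, while edgeR called Usp16 without wt 1 and Kmt2a and Kmt2c without wt 2. The calls of Jarid2, Phc2, Yaf2, L3mbtl2, Scml2 and Foxk2 were lost without wt 3 (adjusted p between 0.0661 and 0.102) and without deficient 1, 2 or 3 (between 0.0891 and 0.188), and those of Yaf2 and L3mbtl2 also with total counts (adjusted p = 0.0830 and 0.0624) and that of Scml2 with no filter on low counts (0.0730). Without wt 1 the called genes numbered 13 of 46, or 28.3% beside 32.4% of all genes. The H3 lysine 27 demethylase Kdm6a, an X-linked gene noted after its values had been seen, stood at 124, 57.4 and 70.9 CPM in wt and at 55.9, 113 and 57.5 CPM in deficient libraries. Its high libraries, wt 1 and deficient 2, were the ones with high Xist.

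**Figure D5:**
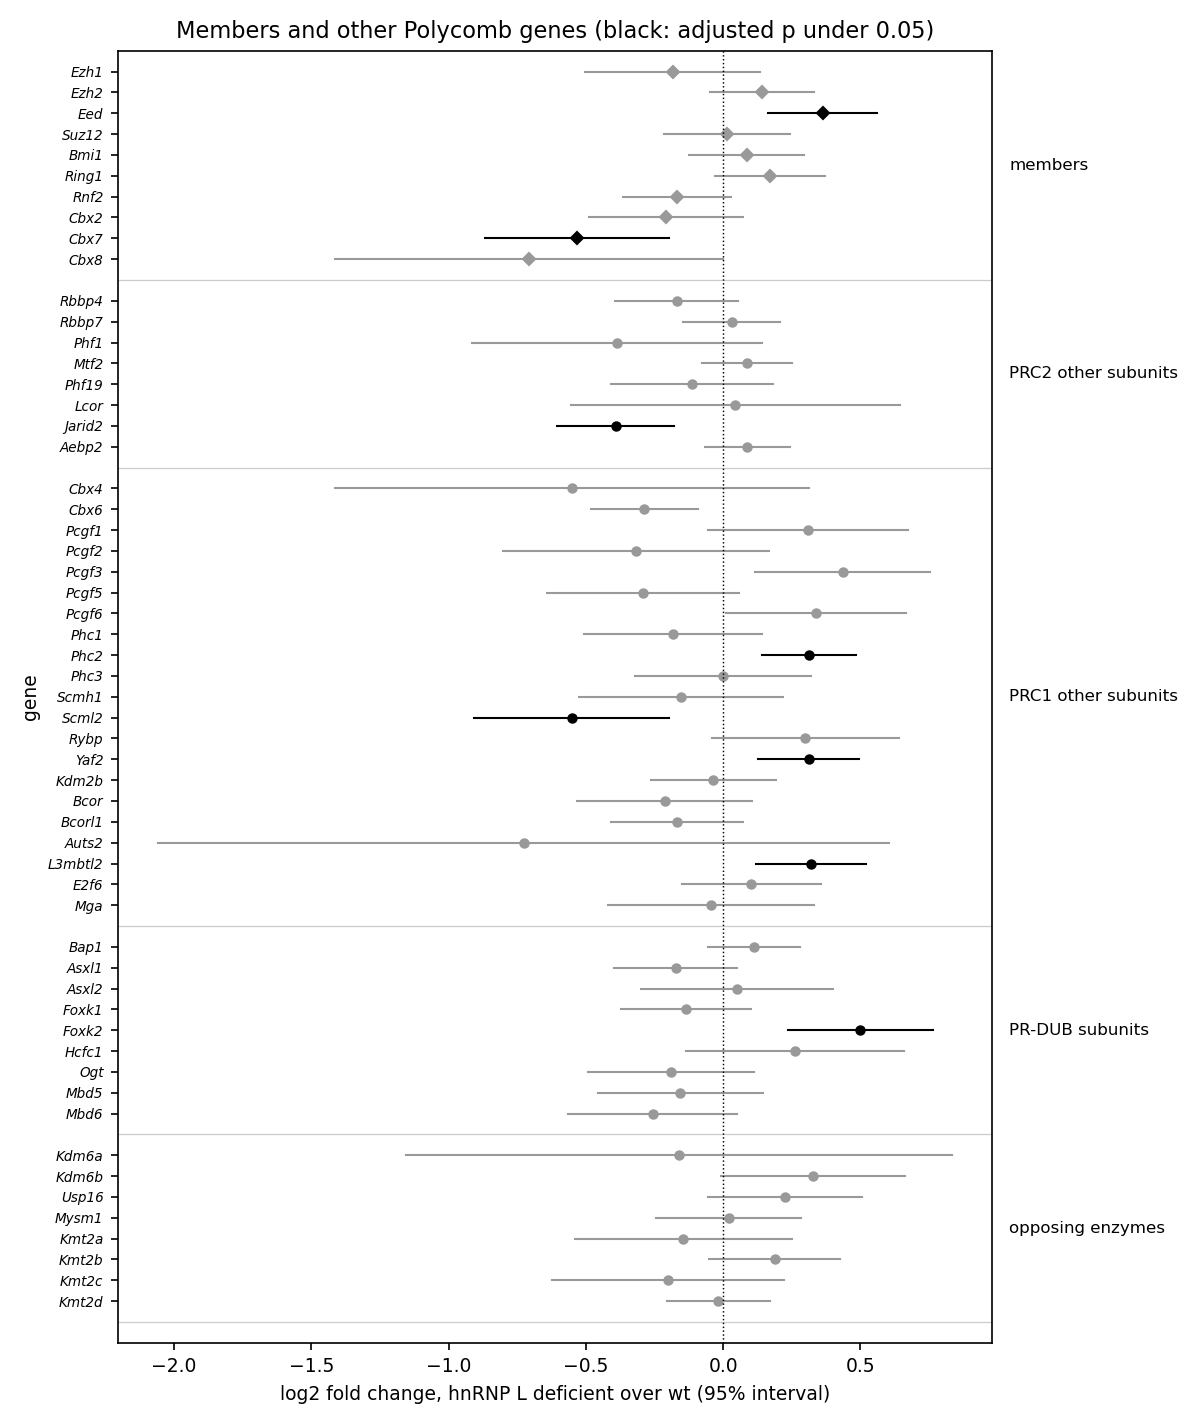
Log2 fold change of each member (diamonds) and of 46 other Polycomb genes (circles) in hnRNP L deficient over wt cells, with 95% intervals from edgeR and genes with an adjusted p under 0.05 in black. Eed and Cbx7 are black among the members, and the called genes lie on both sides of 0 in the lists.

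Genes known as Polycomb targets in other tissues gave little signal in either genotype. Of 22 such genes, 12 had 0 reads in all libraries and 1, Cdkn2b, entered the test. Cdkn2b, a cell cycle inhibitor, stood at 0.216, 0 and 0.0275 CPM in wt and 0.171, 0.306 and 0.576 CPM in deficient libraries, which overlapped (log2 2.15, SE 1.07, adjusted p = 0.186). The genes left out of the test reached at most 0.303 CPM in any library. Cdkn2a, the inhibitor repressed by BMI1 and CBX7 in many cell types, had reads only in deficient 2, at 0.0459 CPM, the value of 3 reads. Of 8 proliferation genes, Mcm5, a replication helicase subunit, was called higher (log2 0.26, adjusted p = 0.0455) and the others passed no test, with a list sum between 4396 and 5300 CPM in wt and between 4800 and 4841 CPM in deficient libraries.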

How the data were processed

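RNA of Lin-cKit+ FL cells from 3 wt and 3 hnRNP L deficient E14.5 embryos was sequenced as stranded mRNA libraries. The authors aligned reads to GRCm38 with TopHat2 2.0.10, counted them with HTSeq on Ensembl genes and with the DEXSeq script on exon bins, and deposited raw counts per embryo. The Ensembl release and strand setting are not given in the sources used here. Read shares are of those on a gene, on no gene, ambiguous or without a unique alignment. Reads classed as unaligned or of low alignment quality are not in that total. Between 46.7% and 53.3% of the total were not assigned to a gene and were left out. Most of the unassigned reads had no unique alignment, which held for 39.8% to 44.7% of the total.

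Counts were tested with edgeR 4.0.16 (R 4.3.3) by the robust quasi-likelihood test on genotype, with TMM factors, the default expression filter and Benjamini-Hochberg adjustment over 14396 genes. For exon bins, diffSpliceDGE was run on those averaging 10 or more reads. Intervals cover 95%. CPM per kb used GENCODE M21 exon lengths. Alternatives were DESeq2 1.42.0, limma 3.58.1 with voom, other scalings and filters, and leaving out each library. The gene and exon bin tests were checked on simulated data with larger changes than those of the members. The simulation gave both genotypes the same spread and does not cover changes as small as those of the members. The p-values of edgeR weigh the difference between genotypes against the spread between these embryos. That spread is estimated per gene with information from all genes and taken as equal in both genotypes. Floors of 3 reads cover counting error only. The members and lists were chosen with earlier results of these data known. All members were described, as were the called genes of each list and its highest gene per kb, the 5 genes nearest to Ezh1 and to Ezh2, and the bin of smallest p per member. Marker lists of 2 further blood lineages are not reported here.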

Additional observations from a re-analysis of the deposited data

How the results depend on the processing

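Over 13 alternatives Eed stayed above 0 (log2 0.29 to 0.45) and Cbx7 below (-0.64 to -0.41). The count of called members was 2. It became 1 with no filter on low counts (12.2% of all genes called) and 3 with limma-voom and sample weights (36.7%). It ranged from 0 to 4 when single libraries were left out. For the other Polycomb genes it was 6, became 13 with limma-voom and sample weights (28.3% beside 36.7% of all genes), and ranged from 0 to 13 without single libraries. Both were 0 without wt 3 and without each deficient library, where over all genes between 5 and 17 calls were left. Hnrnpl ranged from -1.05 to -0.94 without single libraries, with an adjusted p up to 0.0854. Suz12 turned to -0.055 with total counts and ranged from -0.045 to 0.12 without single libraries (below 0 without wt 2 and without wt 3), and no setting called it. The difference in the Ezh1 to Ezh2 ratio ranged from -0.52 to -0.17 and that in PRC1 to PRC2 from -0.27 to -0.13 without single libraries, and the latter was -0.30 with mean log2 levels. The cause of these shifts was not tested. Member exon bins gave 0 calls in every setting. Cdkn2b is limited by its few reads, 88 over the 6 libraries. No paired analysis was possible because the embryo numbers share a first part across the genotypes for wt 1 and deficient 1 alone, and its meaning is not given.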
